A study of Mus musculus with 29 samples.

Results

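The 10 genes *Cartpt*, *Adcyap1*, *Tac1*, *Scg2*, *Scg3*, *Scg5*, *Chga*, *Chgb*, *Vgf* and *Pcsk1n* code for neuropeptide precursors and for proteins of the secretory granules that store them. They were taken by name from the 18194 genes on the array, and all of their probe sets were read, 12 of 45101. They were followed across 29 single retinal ganglion cells (RGCs) and the subtypes that the cells were labelled with. The cells came from the retina of adult mice, whose strain is C57BL/6 in the labels and C57BL/6J in the study's methods. Each was classified by its response to light during recording from the intact retina, drawn into a glass pipette and amplified to cDNA. Each cDNA was hybridized to 1 Affymetrix mouse genome array. The 8 direction selective (DS) cells were 4 On Direction Selective (ON DS) and 4 On-Off Direction Selective (ON-OFF DS) cells. The 9 alpha cells were 2 On Alpha (ON alpha), 4 Off Sustained Alpha (OFF S alpha) and 3 Off Transient Alpha (OFF T alpha) cells. The 2 orientation selective (OS) cells were 1 vertical (ON vOS) and 1 horizontal (ON hOS) cell. The other 10 cells were 2 Suppressed by Contrast (SbC) cells and 1 each of J-RGC, Eyewire Cell 6sw, Eyewire Cell 6sn, Eyewire Cell 4i, Off High Speed Selective, On Pixel Encoder (PixON), On Sustained Non-Alpha (ON S non-alpha) and Local Edge Detector (LED). A cell is named here by its subtype and its number, 1 to 29, in the labels.

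Neuropeptides are made as larger precursor proteins, which enter the secretory pathway, are packed into dense-core granules and are cut into active peptides on the way to release. *Cartpt* codes for the precursor of cocaine- and amphetamine-regulated transcript peptides, *Adcyap1* for that of PACAP, and *Tac1* for that of substance P and neurokinin A. The granins (chromogranin A from *Chga*, chromogranin B from *Chgb*, secretogranin II from *Scg2*, secretogranin III from *Scg3*, and VGF) are acidic proteins of the granule matrix, several of which are themselves cut into peptides. *Scg5* codes for 7B2, the chaperone of prohormone convertase 2, and *Pcsk1n* for proSAAS, an inhibitor of prohormone convertase 1. In the retina, *Cartpt* is a known marker of ON-OFF DS cells, and PACAP is known from the RGCs that contain melanopsin.

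All values are linear MAS5 signals, scaled by the authors so that the trimmed mean of every array was 1500. A gene was called detected in a cell at a signal of 3000 or more, 2 times that mean. For log2 differences, signals under 375 were raised to 375, which is 8.55 on the log2 scale, so a cell there has no measured level, and a difference from a group whose median is at the floor is set by the floor. A cell is 1 sample, and the sources used here do not name the animals, so cells of a subtype may share an animal and no test between groups was made. Differences are given with the values of the cells, and each share of cells with its 95% interval by the exact Clopper-Pearson method, which reflects counting error alone.

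From 1182 genes in SbC 26 to 4201 in EyeWire 6sw 21 were detected per cell, with a median of 2908. SbC 26 was the only cell under 50% of that median. Of 12 RGC genes with a probe set, *Sncg* and *Uchl1* were detected in all 29 cells, and from 4 to 12 of them were detected per cell. The lowest of these counts, in cells where over 5 of the 12 were missing, were 4 in EyeWire 6sw 21, 5 in SbC 26 and 6 in ON S non-alpha 28. RNA of rod photoreceptors was present in many libraries. At least 5 of 10 rod genes were detected in 18 cells, and the summed signal of the rod genes ran from 403 in ON DS 2 to 6342722 in SbC 26. Of 9 amacrine cell genes, from 0 to 3 were detected per cell, with summed signals from 204 to 53874, and *Tfap2a*, *Tfap2b*, *Chat*, *Slc18a3* and *Th* were detected in no cell. The glycine transporter gene *Slc6a9* was detected in 8 cells (up to 45354), *Gad1* and *Slc32a1*, for the synthesis and vesicular transport of GABA, in 4 each (up to 13892 and 15224), and *Gad2* in 2 (up to 12924).

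The members fell into a group that nearly every cell contained and a group that marked subsets. *Scg5* was detected in 29 of 29 cells (100%, interval 88.1 to 100), *Chgb* in 28 (96.6%, 82.2 to 99.9), *Chga* in 27 (93.1%, 77.2 to 99.2) and *Scg3* in 26 (89.7%, 72.6 to 97.8). *Scg2* was detected in 12 cells (41.4%, 23.5 to 61.1), *Cartpt* in 10 (34.5%, 17.9 to 54.3), *Adcyap1* in 5 (17.2%, 5.85 to 35.8), *Tac1* in 3 (10.3%, 2.19 to 27.4) and *Vgf* in 2 (6.90%, 0.846 to 22.8). *Pcsk1n* was detected in none (0%, 0 to 11.9). *Adcyap1* was detected in 3 cells at a threshold of 6000 or after quantile normalization, and *Vgf* in 0 at a threshold of 6000. Thus 4 of the 10 members were detected in at least 15 cells, where 10.6% of all genes were. The median member was detected in 11 cells, and the median of all genes was 1 cell.

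**Figure D1:**
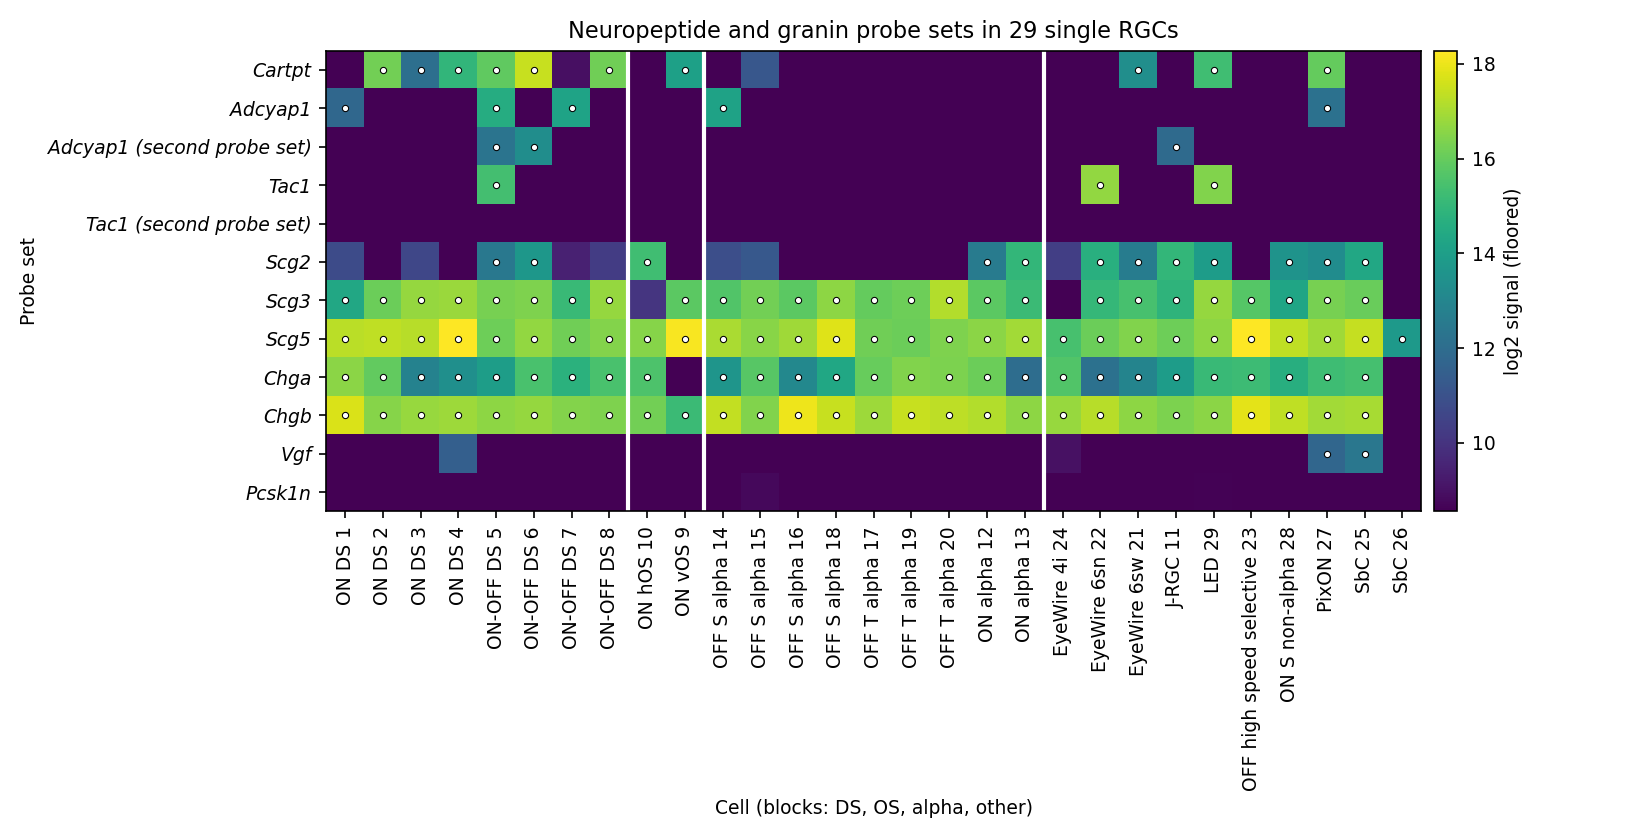
Log2 signal, raised to 8.55 where lower (colour), of the 12 probe sets of the 10 members (rows) in 29 single RGCs (columns, in blocks of DS, OS, alpha and other cells). White points mark signals of 3000 or more. *Scg3*, *Scg5*, *Chga* and *Chgb* fill nearly every column, while *Cartpt*, *Adcyap1*, *Tac1*, *Scg2* and *Vgf* appear in subsets of cells.

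The start sites of *Cartpt*, *Scg2* and *Chgb* are shown because a full cAMP response element, the 8 bases TGACGTCA, lay within 250 bases before each, and because these 3 members spanned the range from subset to nearly general detection (10, 12 and 28 cells). The sequences are from RefSeq on GRCm38.p6, 5′ to 3′ on the strand of the gene, and the capitals mark the element, which reads the same on both strands.
*Cartpt* (GRCm38.p6 chr13:99900684-99900933, minus strand): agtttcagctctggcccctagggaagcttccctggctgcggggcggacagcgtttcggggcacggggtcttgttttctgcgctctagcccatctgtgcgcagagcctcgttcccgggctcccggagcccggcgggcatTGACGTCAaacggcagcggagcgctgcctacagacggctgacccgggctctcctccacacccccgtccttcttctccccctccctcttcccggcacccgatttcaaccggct
*Scg2* (GRCm38.p6 chr1:79440027-79440276, minus strand): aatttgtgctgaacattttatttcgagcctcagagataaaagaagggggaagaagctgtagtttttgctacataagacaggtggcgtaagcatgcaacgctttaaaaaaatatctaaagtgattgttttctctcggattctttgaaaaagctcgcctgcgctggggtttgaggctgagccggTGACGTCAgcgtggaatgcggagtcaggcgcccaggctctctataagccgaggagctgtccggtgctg
*Chgb* (GRCm38.p6 chr2:132781392-132781641, plus strand): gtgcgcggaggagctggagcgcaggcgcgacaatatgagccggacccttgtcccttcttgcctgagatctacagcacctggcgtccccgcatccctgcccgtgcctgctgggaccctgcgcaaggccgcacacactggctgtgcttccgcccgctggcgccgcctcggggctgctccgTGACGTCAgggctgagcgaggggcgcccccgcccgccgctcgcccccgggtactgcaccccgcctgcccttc

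Counted back from the start site, the element lay at -112 to -105 in *Cartpt*, at -68 to -61 in *Scg2* and at -72 to -65 in *Chgb*. It was found in 3 of the 9 members with an entry in the promoter table, and in 508 of 32851 windows of the same length in all (1.55%). *Vgf* has no entry in the table. The 5-base core TGACG, searched on both strands and contained in the full element, was found in 8 of these 9 members and in 17.8% of all windows. The match describes these letters and is not a measurement of binding.

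Among the precursors, *Cartpt* was detected in 6 of 8 DS cells. Its signals in the ON DS cells were 129, 75979, 4454 and 32046 (ON DS 1 to 4), and in the ON-OFF DS cells 61800, 181066, 489 and 72892 (ON-OFF DS 5 to 8). Each DS subtype thus held 3 cells with clear signal and 1 without. Outside the DS class, the signals of the cells with *Cartpt* were 17084 in ON vOS 9, 10566 in EyeWire 6sw 21, 64451 in PixON 27 and 39687 in LED 29. In the alpha cells it was detected in 0 of 9 (interval 0 to 33.6), with signals from 1.71 to 117 in 8 cells and 2334 in OFF S alpha 15.

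*Adcyap1* was detected in DS cells of both subtypes and in single cells elsewhere. At the probe set with the higher mean signal, 1423427_at, it read 3596 in ON DS 1, 24532 in ON-OFF DS 5, 18837 in ON-OFF DS 7, 18360 in OFF S alpha 14 and 4674 in PixON 27. In the other 24 cells it was at most 373. The second probe set, 1441778_at, gave 4967 in ON-OFF DS 5, 10334 in ON-OFF DS 6 and 3864 in J-RGC 11, and at most 249 elsewhere. The 2 probe sets thus shared 1 cell, ON-OFF DS 5, of the 7 cells that either of them marked, and the count for *Adcyap1* depends on the probe set read. Among the PACAP receptors, *Adcyap1r1*, which codes for PAC1, was detected in 6 cells. Of these, 4 were among the 5 with *Adcyap1* at 1423427_at (ON DS 1, ON-OFF DS 5, OFF S alpha 14 and PixON 27). ON-OFF DS 6 and J-RGC 11, marked by the second *Adcyap1* probe set alone, were not among the 6. The other probe sets of *Adcyap1r1* were detected in no cell, with highest signals of 151 and 395. This overlap thus rests on 1 probe set of each gene. *Vipr2*, which codes for VPAC2, was detected in 7 cells, 2 of them with *Adcyap1*. *Vipr1* was detected in none. The 5 cells with *Adcyap1* had from 3104 to 3591 detected genes, where the median of all cells was 2908. The part of depth in these overlaps was not tested.

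*Tac1* was seen in 3 cells and at the floor in all others. The signals at 1416783_at were 42100 in ON-OFF DS 5, 107119 in EyeWire 6sn 22 and 88564 in LED 29, against at most 256 in the other 26 cells. The second probe set, 1431883_at, was detected in no cell, with a highest signal of 222, so all *Tac1* results rest on 1 probe set. All 3 cells also contained *Scg2*, which was detected in 12 cells in all. EyeWire 6sn 22 contained 2 of 9 amacrine genes, *Gad1* and *Slc32a1* (summed amacrine signal 20963), and ON-OFF DS 5 and LED 29 contained 0. The part of amacrine RNA in the *Tac1* signals was not tested. Of the tachykinin receptors, *Tacr1* and *Tacr2* were detected in no cell, and *Tacr3* was detected in 1, PixON 27.

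At the threshold of 3000, every DS cell contained at least 1 of the 3 precursors. The share was 8 of 8 in DS cells (interval 63.1 to 100), 1 of 9 in alpha cells (0.281 to 48.2), 1 of 2 in OS cells and 4 of 10 in the other cells. The 2 DS cells that lacked *Cartpt*, ON DS 1 and ON-OFF DS 7, both contained *Adcyap1* at 1423427_at. The second probe set read 140 and 13 in them, so the share of 8 of 8 rests on the first. These cells contained 9 and 7 of the 10 rod genes. The count in DS cells was 6 of 8 at a threshold of 6000, where ON DS 1 and ON DS 3 were no longer called, and 7 of 8 after quantile normalization. The 1 alpha cell was OFF S alpha 14, with *Adcyap1* alone. It contained 9 of the 10 rod genes, the amacrine genes *Gad1* and *Slc32a1*, and the bipolar cell genes *Cabp5*, *Otx2* and *Pcp2*. ON-OFF DS 7 contained the amacrine genes *Gad1* and *Slc6a9*, and ON DS 1 contained no amacrine gene. At least 2 precursors were detected in 3 cells. ON-OFF DS 5 contained all 3, PixON 27 contained *Cartpt* and *Adcyap1*, and LED 29 contained *Cartpt* and *Tac1*. The DS and alpha cells had similar numbers of detected genes (1842 to 3591, median 2968.5, and 1672 to 4073, median 3015). At least 5 rod genes were detected in 3 of the DS cells and 6 of the alpha cells. The part of RNA of rods and other retinal cells in the difference between the shares was not tested.

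Of the granins, *Scg2* was the one detected in a subset of cells of sizeable number. Its highest signals were 40118 in ON hOS 10, 32710 in J-RGC 11, 32234 in ON alpha 13, 26051 in EyeWire 6sn 22 and 21352 in SbC 25. LED 29 (15538), ON-OFF DS 6 (13234), ON S non-alpha 28 (11836), PixON 27 (9942), EyeWire 6sw 21 (6372), ON alpha 12 (6200) and ON-OFF DS 5 (5552) completed the 12 cells. Both ON alpha cells were among them, as were 2 of 4 ON-OFF DS cells and 7 of the 10 other cells. None of the 7 OFF alpha cells (signals from 1.04 to 2381), of the 4 ON DS cells (2.56 to 1739), or the Off High Speed Selective cell (6.76) was. All 8 cells labelled Off were thus without it, and the share of all genes absent from these 8 was not counted. The median number of detected genes was 3095.5 in cells with *Scg2* and 2748 in cells without it. At least 5 rod genes were detected in 6 of the 8 cells labelled Off and in 6 of the 10 labelled On. The part of depth and rod RNA in this split was not tested. The gap of *Scg2* signals around the threshold lay between 2381 in OFF S alpha 15 and 5552 in ON-OFF DS 5. At a threshold of 1500, 2 OFF alpha cells counted as containing *Scg2*.

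*Scg3* was at 19990 or more in the 26 cells that contained it, with a highest signal of 147425 in OFF T alpha 20. The 3 cells without it were ON hOS 10 (1068), EyeWire 4i 24 (320) and SbC 26 (322). *Chga* ran from 4198 in ON alpha 13 to 98462 in ON DS 1 in 27 cells, and was absent from the calls of ON vOS 9 (225) and SbC 26 (18). Its values thus spread widely among the cells that contained it, as in the 2 ON alpha cells, which read 70530 and 4198. *Chgb* lay between 37533 and 270371 in 28 cells and at 80 in SbC 26. Its range was the narrowest of the granins within the DS class (SD 0.42 on the log2 scale, n = 8, against 0.87 for *Scg3*, 1.31 for *Chga* and 1.80 for *Scg2*). *Vgf* was detected in SbC 25 (5404) and PixON 27 (3467), and ON DS 4 lay just under the threshold (2898). In the other 26 cells it was at most 501.

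*Scg5*, the convertase 2 chaperone, was the member detected without exception, from 14342 in SbC 26 to 317733 in Off High Speed Selective 23. SbC 26 contained no other member. *Pcsk1n* read at most 438 in any cell, in OFF S alpha 15, through a single probe set.

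The combinations of members differed more in the subset genes than in the general ones. *Scg3*, *Scg5*, *Chga* and *Chgb* were detected together in 25 of 29 cells. The number of members per cell had a median of 5, from 1 in SbC 26 to 8 in ON-OFF DS 5 and PixON 27. None of *Cartpt*, *Adcyap1*, *Tac1*, *Scg2* and *Vgf* was detected in 9 cells, which were 6 of the 7 OFF alpha cells, Off High Speed Selective 23, EyeWire 4i 24 and SbC 26. *Cartpt* alone of these 5 was detected in 5 cells (ON DS 2, 3 and 4, ON-OFF DS 8 and ON vOS 9), *Scg2* alone in 5 (ON hOS 10, J-RGC 11, ON alpha 12 and 13, and ON S non-alpha 28) and *Adcyap1* alone in 3 (ON DS 1, ON-OFF DS 7 and OFF S alpha 14). ON-OFF DS 6 and EyeWire 6sw 21 contained *Cartpt* with *Scg2*, SbC 25 contained *Scg2* with *Vgf*, and EyeWire 6sn 22 contained *Tac1* with *Scg2*. The number of members rose with the number of detected genes as a description across the 29 cells (r = 0.47, rho = 0.44), and r was 0.27 without the 2 cells farthest from the median depth. Against the number of rod genes r was -0.12. Both members and depth are read from the same array.

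**Figure D2:**
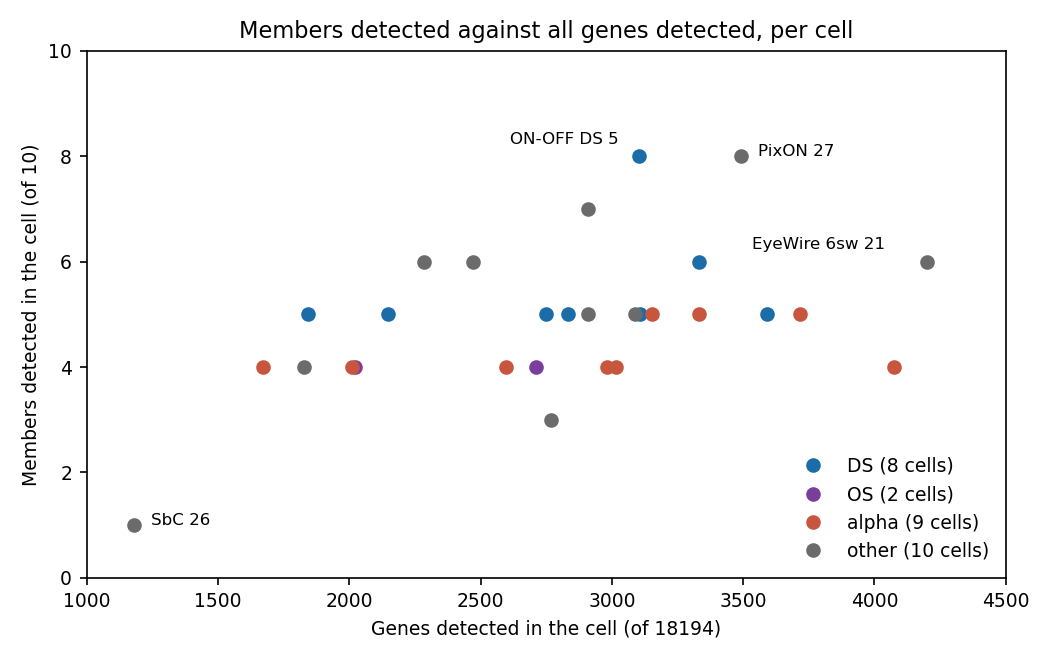
Number of members detected (of 10, y axis) against the number of genes detected (of 18194, x axis), 1 point per cell, coloured by class. SbC 26 has the lowest of both (1 member, 1182 genes), and the 2 cells with 8 members, ON-OFF DS 5 and PixON 27, lie at 3104 and 3493 genes, below EyeWire 6sw 21 with 4201 genes and 6 members.

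The DS and alpha classes were compared by their median log2 signals. The difference reached 2 on the log2 scale, which is 4-fold, in 1 of 10 members toward DS cells (*Cartpt*, 6.89, a lower bound because the alpha median was at the floor) and in 0 of 10 toward alpha cells. Of all genes, 2.77% reached it toward DS cells and 4.55% toward alpha cells. The median over the members was 0, as it was over all genes. *Scg2* differed by 1.91 in medians and by 0.28 in means, and the difference in medians ran from 0.74 to 2.09 when single cells were left out. It passed 2 without ON DS 2, ON DS 4, ON-OFF DS 7 or ON-OFF DS 8. Of the 4 general members, *Scg3*, *Scg5* and *Chga* differed little beside their spread. The DS minus alpha differences were 0.34 for *Scg3*, 0.37 for *Scg5*, -0.64 for *Chga* and -0.63 for *Chgb*. The SDs lay between 0.42 and 1.63 in the 2 classes, and the signals of the classes overlapped for each. The median difference of *Chgb* was larger than its SDs (0.42 in DS and 0.49 in alpha cells). It ran from -0.6842 to -0.5594 when single cells were left out, and was smaller in size after quantile normalization. The rod genes moved with this comparison, since 5 of 10 were at least 4-fold lower in DS cells (median difference -2.31). So were 2 of 10 Müller glia genes, and of the 12 RGC genes 1 was higher and 1 lower. The part of these genes in the result was not tested.

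**Figure D3:**
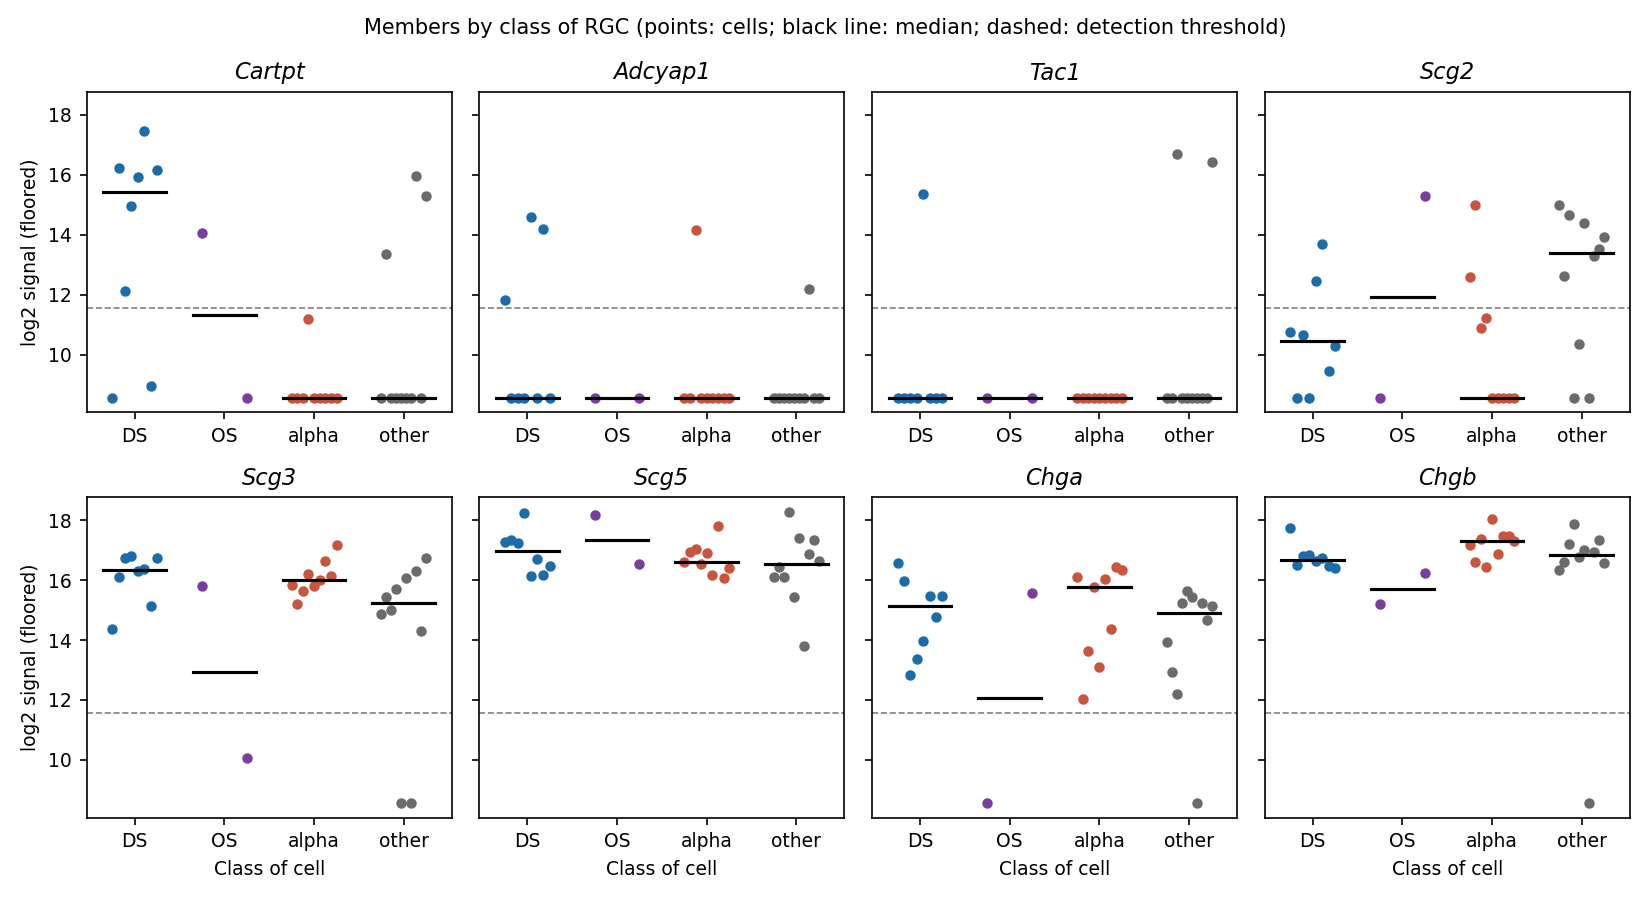
Log2 signal, raised to 8.55 where lower (y axis), of the 8 members detected in at least 3 cells, by class of RGC (x axis, 8 DS, 2 OS, 9 alpha and 10 other cells). Points are cells, black lines medians and the dashed line the detection threshold of 3000. The *Cartpt* median lies above the threshold in DS cells and at the floor in alpha cells, while *Scg3*, *Scg5*, *Chga* and *Chgb* overlap between these classes.

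Within the DS class, ON-OFF DS cells were set against ON DS cells, 4 against 4. The median was at least 4-fold higher in ON-OFF DS cells for 2 of 10 members, *Adcyap1* (2.83) and *Cartpt* (2.49), where 8.39% of all genes were, and higher in ON DS cells for 0, where 3.18% were. Both of these depended on single cells. Without ON-OFF DS 5, or without ON-OFF DS 7, the *Adcyap1* difference was 0, and without ON-OFF DS 6 or ON-OFF DS 8 it was 5.65. Without ON DS 1, or without ON DS 3, the *Cartpt* difference was 1.07, and without ON DS 2 or ON DS 4 it was 3.91. The difference in means was 1.65 for *Cartpt*, with SDs of 3.85 and 3.40. *Scg5* differed less but without overlap. It read 158968, 166034, 154905 and 310847 in ON DS cells and 71594, 105851, 74615 and 89994 in ON-OFF DS cells. Every ON DS cell was thus above every ON-OFF DS cell, with a median difference (ON-OFF DS minus ON DS) of -0.99. The ranges of 1 of 10 members did not overlap, beside 3.67% of all genes. The 4 ON DS cells had fewer detected genes (median 2490 against 3218.5), and 6 of 10 rod genes were at least 4-fold lower in ON-OFF DS cells (median difference -2.34). Of the 10 Müller glia genes 2 were lower and 1 higher, and of the 12 RGC genes 1, *Pou4f1*, was higher (6.11). The part of these genes in the result was not tested. After quantile normalization the *Scg5* difference was -0.43.

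The sustained and transient OFF alpha cells differed in *Chga* and *Scg5*, in opposite directions. *Chga* read 12714, 55533, 8683 and 20918 in the OFF S alpha cells (14, 15, 16 and 18) and 66874, 87953 and 83680 in the OFF T alpha cells (17, 19 and 20). All 3 transient cells were above all 4 sustained cells, with a median difference of -2.36 (sustained minus transient) that ran from -2.72 to -2.0 when single cells were left out. It was the 1 member of 10 at least 4-fold higher in OFF T alpha cells, where 10.1% of all genes were, and 0 members were at least 4-fold higher in OFF S alpha cells, where 3.46% were. *Scg5* read 133849, 95970, 121426 and 228429 in the sustained cells and 73400, 69542 and 86501 in the transient cells, a difference of 0.80 with no overlap. Thus 2 of 10 members had ranges that did not overlap, beside 6.1% of all genes. *Chgb* (0.10), *Scg3* (-0.12) and *Scg2* (1.17) overlapped between these subtypes. The rod genes moved with this comparison as well. All 4 OFF S alpha cells contained at least 5 rod genes (summed signals from 232807 to 3367619) and 1 of 3 OFF T alpha cells did (9211 to 630975), and 8 of 10 rod genes were at least 4-fold higher in sustained cells (median difference 6.40). Genes of other retinal cells moved the same way, with 3 of 7 cone genes (*Opn1mw*, 5.32) and 2 of 7 bipolar cell genes (*Pcp2*, 7.64) higher in sustained cells. Of the Müller glia genes 1 of 10 was higher and 1 lower, and the amacrine gene *Gad2* (-4.23) was lower. Of the 12 RGC genes, *Stmn2* (-3.84) and *Pou4f1* (-5.49) were lower in sustained cells. The part of these genes in the *Chga* and *Scg5* differences was not tested.

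**Figure D4:**
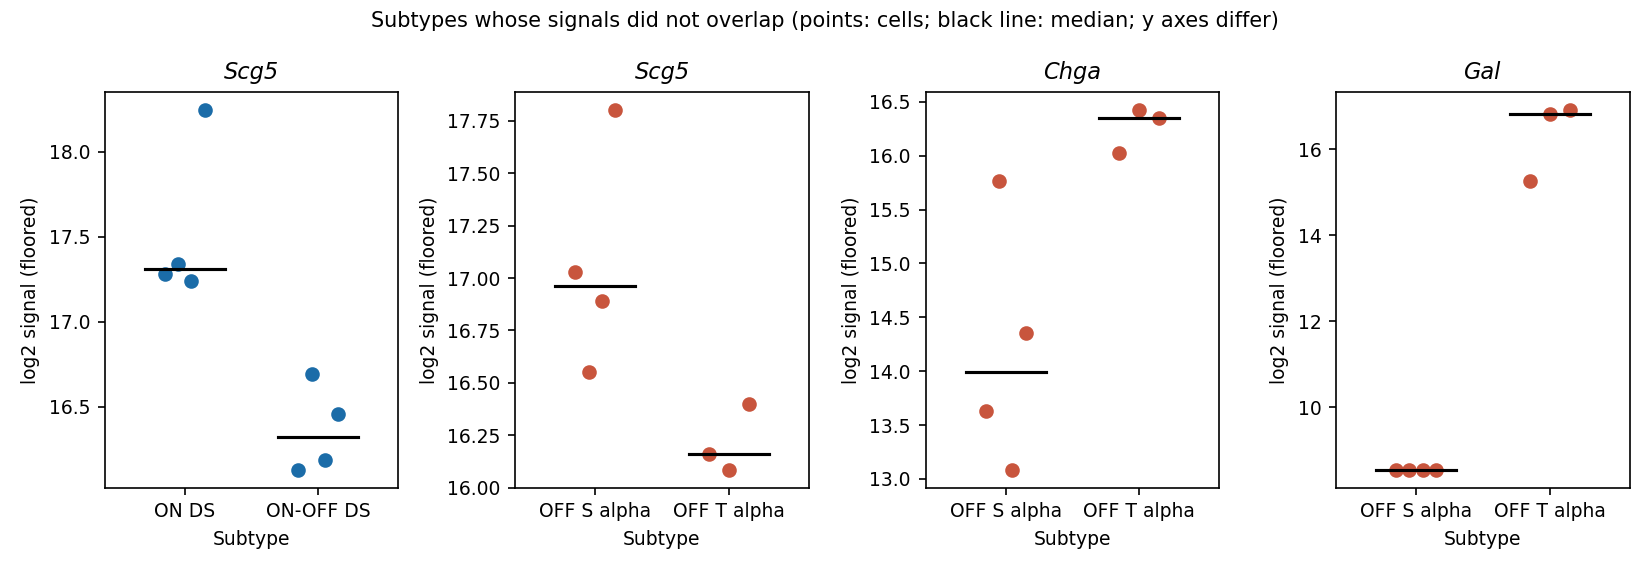
Log2 signal (y axes, each on its own scale, raised to 8.55 where lower) of *Scg5* in 4 ON DS and 4 ON-OFF DS cells, and of *Scg5*, *Chga* and *Gal* in 4 OFF S alpha and 3 OFF T alpha cells. Points are cells and black lines medians. In each panel every cell of one subtype lies above every cell of the other, with ON DS cells higher for *Scg5*, sustained cells higher for *Scg5*, and transient cells higher for *Chga* and *Gal*.

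*Gal*, the precursor of galanin, was 1 of 41 other neuropeptide precursors on the array, and it was detected in the 3 OFF T alpha cells and in none of the other 26 cells. OFF T alpha 17, 19 and 20 read 39387, 116014 and 123210, while the OFF S alpha cells read from 12 to 121, and no cell but the transient ones read over 316. All sustained cells were under the floor, so the median difference of -8.27 (sustained minus transient) gives a lower bound of its size. It rests on a single probe set. Between these subtypes, the ranges of 6.1% of all genes did not overlap. The share of all genes detected in the OFF T alpha cells alone was not counted. The count of 3 cells was the same at thresholds of 1500 and 6000 and after quantile normalization. OFF T alpha 17, 19 and 20 contained 1, 6 and 1 of the 10 rod genes. Each also contained 1 of 9 amacrine genes, *Slc6a9* in OFF T alpha 20 and *Gad2* in the others. *Gad2* was detected in these 2 cells alone. The part of rod and amacrine RNA in the *Gal* signals was not tested.

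The members were chosen with earlier results of these data known and include general granule genes, so their counts cannot be set against those of other precursors. Of the 41 other precursors, 30 were detected in no cell (73.2%), where 45.0% of all genes were, and 2 were detected in 3 or more cells. Besides *Gal* this was *Nmb*, the precursor of neuromedin B, at 33048 in ON DS 1, 14356 in ON-OFF DS 7, 9219 in ON alpha 12, 9559 in EyeWire 6sw 21 and 4263 in SbC 25. ON DS 1 and ON-OFF DS 7 were the 2 DS cells that lacked *Cartpt*. With all 44 precursors that had a value, at least 1 was detected in 24 of 29 cells, against 14 for *Cartpt*, *Adcyap1* and *Tac1*, and the share in alpha cells was 7 of 9 in place of 1 of 9. The median of the list in each of the 3 comparisons was 0, and *Gal* was its sole gene past 4-fold in any of them. This was 1 of 41 genes, where 10.1% of all genes passed this mark toward OFF T alpha cells.

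The enzymes with a value that cut and trim precursors were represented mainly by *Cpe* and *Ctsl*. *Cpe*, which codes for carboxypeptidase E, was detected in 29 of 29 cells (64659 to 990978), and *Ctsl*, the protease cathepsin L, in 28. Their other probe sets were detected in no cell, with highest signals of 708 and 237. *Pcsk2*, which codes for convertase 2, had no value here and could not be read. *Pcsk1*, which codes for convertase 1, was detected in 2 cells, ON hOS 10 (44839) and PixON 27 (9425), and *Pam*, which codes for the enzyme that amidates peptides, in none. Of 11 enzyme genes with a value, 2 were detected in at least 15 cells, and of 21 genes of granule formation and release, 7 were, beside 10.6% of all genes. These were *Rab3a*, a GTPase of synaptic and granule vesicles, and *Ptprn*, a membrane protein of dense-core granules, in 28 cells each, *Cadps*, a priming factor of granule release, in 27, *Ptprn2*, the close relative of *Ptprn*, in 26, the calcium sensor *Syt7* in 21, and *Hid1* and *Eipr1*, which act in granule formation, in 16 and 15. In the DS and alpha comparison, 2 of the 21 granule genes and 1 of 9 peptide receptor genes were at least 4-fold lower in DS cells, beside 4.55% of all genes, and 1 granule gene was higher, beside 2.77%. *Syt7* was lower in DS cells (-3.97, detected in 4 of 8 against 8 of 9 cells), and *Hid1* was higher (2.22, 5 of 8 against 4 of 9). Both genes also differed within the DS class. There, ON-OFF DS minus ON DS was 5.75 for *Syt7* (3 of 4 against 1 of 4 cells) and -2.91 for *Hid1* (2 of 4 against 3 of 4). *Cyb561*, an electron carrier of the granule membrane, gave -2.68 with detection in 2 of 8 against 4 of 9 cells, and *Adcyap1r1* gave -2.13 with 2 of 8 against 3 of 9. The alpha medians of these last genes, 2401 and 1638, were under the detection threshold. Other probe sets of *Syt7* were detected in 1, 15 and 16 cells, so its count depends on the probe set read. By median log2 signal, 4 of the 21 granule genes were at least 4-fold higher in ON-OFF DS than in ON DS cells (8.39% of all genes were). The number lower was 1 (3.18%). Among the 4 was *Eipr1* (2.19), whose median on the linear scale was lower in ON-OFF DS cells (19849 against 21678). Of the 21, 5 were higher in OFF T alpha than in OFF S alpha cells (10.1%) and 1 lower (3.46%). Of the 11 enzyme genes, 0 passed this mark within the DS class and 1, the convertase gene *Pcsk7*, was higher in OFF T alpha cells (sustained minus transient, -4.88). The median difference of each of these lists was 0 in all 3 comparisons, as over all genes.

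Across the 29 cells, the members detected in nearly all cells seemed to vary together until 1 cell was left out. Pearson r of log2 signals was 0.62 for *Chga* and *Chgb*, 0.61 for *Scg5* and *Chgb*, 0.58 for *Scg3* and *Scg5*, 0.57 for *Scg3* and *Chgb*, 0.24 for *Scg3* and *Chga*, and 0.12 for *Scg5* and *Chga*, with a median of 0.57 over the 6 pairs. Without SbC 26, in which *Scg3*, *Chga* and *Chgb* were all at the floor, the median was 0.10 and the values ran from -0.33 for *Scg5* and *Chga* to 0.40 for *Chga* and *Chgb*. Spearman rho over all 29 cells lay between -0.12 and 0.30 for these pairs. The other 30 pairs of detected members had r between -0.17 and 0.38, with a median of 0.08, the highest being that of *Cartpt* and *Scg3* (rho = 0.56). Signals of a cell share an array and an amplification, so these values are descriptions.

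**Figure D5:**
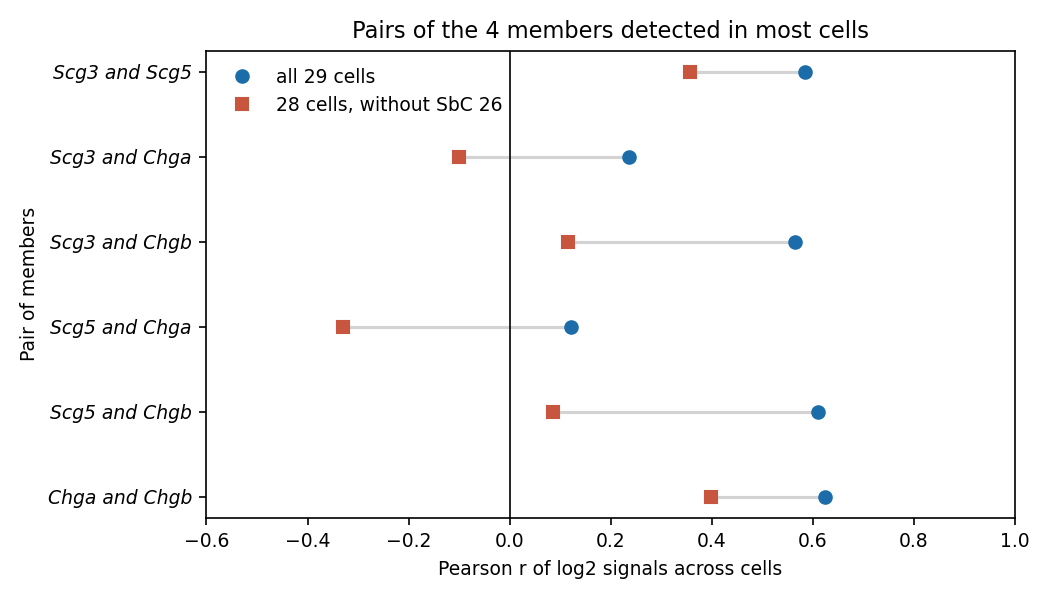
Pearson r of log2 signals across cells (x axis) for the 6 pairs of *Scg3*, *Scg5*, *Chga* and *Chgb* (y axis), over all 29 cells (blue circles) and over 28 cells without SbC 26 (red squares). Every value falls when SbC 26 is left out, and the pairs *Scg3* with *Chga* and *Scg5* with *Chga* fall below 0.

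For each of the 8 members detected in at least 3 cells, the 3 genes with the most similar log2 signals were taken from 5619 genes detected in at least 5 cells. For *Cartpt* these were *Cd200*, a membrane glycoprotein (r = 0.76, rho = 0.71, detected with it in 6 of 6 cells), *Dhx16*, an RNA helicase of splicing (0.70), and *Trp53i11* (0.65). For *Adcyap1* they were *Msl3l2* (0.835), *Bri3* (0.80) and *Zfp672* (0.75), the last of which was detected in all 5 *Adcyap1* cells and 3 others. The *Tac1* values rest on 3 cells and were 0.78 for *Gadd45gip1*, 0.69 for *Snx5* and 0.67 for the ephrin receptor *Epha8*, and without the 2 cells farthest from the *Tac1* median they were 0.41, 0.55 and 0.46.

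For *Scg2* the 3 genes were *Jam2*, a junctional adhesion molecule (r = 0.68, rho = 0.69), *Naa35* (0.67, detected in 11 of the 12 *Scg2* cells and 14 cells in all) and *Lrfn5* (0.65). For *Scg3* they were the adhesion molecule *Ncam1* (0.78), *Psmb5* (0.72) and *Atraid* (0.67), with rho between 0.25 and 0.38. *Scg5* was followed by *Kif1b*, a kinesin motor (r = 0.80, rho = 0.63), *Atp5mpl* (0.73, 0.73) and *Pebp1* (0.68, 0.48). *Chga* was followed by *Trnp1* (0.76), *Atp2a2*, the calcium pump of the endoplasmic reticulum (0.76), and *Tmx2* (0.72), with rho of 0.39, 0.53 and 0.25. The highest values were those of *Chgb*, with *Ywhab* (0.91), *Atp2a2* (0.90) and *Kif1b* (0.89), and they fell the most without SbC 26, to 0.32, 0.53 and 0.29. The r of *Cd200*, *Dhx16* and *Trp53i11* with *Cartpt* without SbC 26 was 0.75, 0.69 and 0.64.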

How the data were processed

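The deposited values are intensities that the authors computed with MAS5 (version not given in the sources used here). They are linear signals from 0.14 to 2096650 for 45101 probe sets in 29 cells, with a 2% trimmed mean of 1500 on every array. The total cDNA had been amplified by PCR from an oligo dT primer, so signals reflect amplified 3′ ends and levels of different probe sets were not compared. The number of arrays limits the precision.

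Probe sets were named from the platform annotation, updated through gene IDs to RefSeq symbols. Those of several genes (932) or of no named gene (9211) were left out, which left 18194 genes. Of several probe sets of a gene, the one whose log2 signals had the highest mean was read. Detection was a signal of at least 3000, and the floor for log2 values was 375. Group differences are of median log2 signals, and 2 was the mark for a difference. Genes were named by a rule, which took the members at all probe sets, their 3 most similar genes by Pearson r in a pool of genes called in at least 5 cells, precursors and receptors detected in at least 3 cells, enzymes and granule genes detected in at least 15 cells, and genes of these lists that differed by at least 2 between DS and alpha cells. Genes named outside it were chosen after their values were seen. The members and the gene lists were chosen with earlier results of these data known. No tests between groups were made, because the labels name no animals. Python 3.11.15, pandas 2.3.3, numpy 2.4.6 and scipy 1.17.1 were used, and the difference and correlation steps were tested on simulated data. Alternatives were other thresholds, floors, probe sets, normalization and sets of cells. Promoter windows hold 250 bases before RefSeq start sites, which are annotated starts and not measured here.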

Additional observations from a re-analysis of the deposited data

Results flagged for a closer look

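Within groups of 4 to 10 cells, 41 sets of member signals were checked for a cell far from the others, by the gap of the highest or lowest cell to its neighbour as a share of the whole range (log2 signals). Chance flags about 1 in 20 sets of signals above the floor, and 13 were marked. Sets with signals at the floor, and nested groups of cells, do not follow that rate, so the 13 cannot be set against it. In most of the 13 a gene was above the floor in 1 cell alone, where the share is 1 by construction. *Tac1* was so in ON-OFF DS 5 (42100), both among the 8 DS cells and among the 4 ON-OFF DS cells (share 1). *Vgf* was so in ON DS 4 (2898) among the DS cells and among the ON DS cells (share 1). *Adcyap1* was so in ON DS 1 (3596) among the ON DS cells and in OFF S alpha 14 (18360) among the alpha and the OFF S alpha cells (share 1). *Cartpt* (2334) and *Pcsk1n* (438), both under the detection threshold, were so in OFF S alpha 15 among the alpha and the OFF S alpha cells (share 1). With signals above the floor in all cells, *Chgb* in ON DS 1 (218281) stood above the other DS cells with a share of 0.677, and *Scg5* in ON DS 4 (310847) above the other ON DS cells with a share of 0.9.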

How the results depend on the processing

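The 29 arrays and a single array per cell limit these values, cells of several subtypes were single, and cells cannot be told apart from animals. Leaving out the 18 cells with at least 5 rod genes left 11. Member detections then numbered 57 over 11 cells in place of 142 over 29, and the median number per cell was 5 in both. At least 2 precursors were detected in 1 of 11 cells in place of 3 of 29, and a precursor in 5 of 5 DS cells. Members higher in ON-OFF DS cells were 1 in place of 2. The median pair correlation was -0.005 in place of 0.57 (*Chga* and *Chgb* -0.047, *Scg5* and *Chgb* -0.0402, *Scg5* and *Chga* -0.036). Among these 11 cells, *Adcyap1* was detected in 1, and 0 of 3 alpha cells contained a precursor. No OFF S alpha cell was left, so the OFF alpha comparison was not possible there. Without a floor, 3 members passed 4-fold toward DS cells (in place of 1), 1 toward alpha cells (0), 4 toward ON-OFF DS cells (2), 1 toward OFF S alpha cells (0) and 3 toward OFF T alpha cells (1), through signals under 375. Quantile normalization gave 2 members toward DS cells, and a floor of 1500 or differences of means gave 1 toward ON-OFF DS cells. The median pair correlation was 0.20 by Spearman rho and 0.20 on linear signals, where *Scg5* and *Chga* gave -0.12 and -0.17. When each cell was left out in turn, member detections ran from 134 to 141, members per cell from 5 to 5, cells with at least 2 precursors from 2 to 3, members toward DS cells from 1 to 2, toward ON-OFF DS cells from 1 to 3 (1 without ON-OFF DS 5), toward OFF S alpha cells from 0 to 1 (1 without OFF S alpha 16 or OFF S alpha 18), toward OFF T alpha cells from 1 to 1, and toward alpha cells and ON DS cells from 0 to 0. The median pair correlation ran from 0.10 (without SbC 26) to 0.61, and without SbC 26 *Scg3* and *Chga* gave -0.10 (up to 0.38 without other cells) and *Scg5* and *Chga* -0.33 (up to 0.36). The cause of these changes was not tested. No paired analysis was possible because replicate numbers only name cells and no test was made. Detection counts for *Gal*, for precursors by class and for *Scg2* in OFF alpha cells under these alternatives were added after seeing the data.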

Other observations

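Several precursors outside the member list were each found in 1 or 2 cells, at signals far from the floor, and are given here as values chosen after they were seen. *Penk*, the precursor of the enkephalins, read 403839 in SbC 26, the cell that contained a single member of the 10 and the fewest genes, and at most 413 in any other cell. *Npff* (104550) and *Pmch* (69859), the precursors of neuropeptide FF and melanin-concentrating hormone, were both detected in EyeWire 4i 24 and in no other cell. *Pdyn*, the precursor of dynorphins, read 24866 in ON S non-alpha 28, the cell with the highest number of amacrine genes (3, summed signal 53874), and *Sst*, the precursor of somatostatin, read 5161 in the same cell and 11952 in OFF S alpha 18. *Pomc* was detected in ON-OFF DS 8 (24940), and its second probe set was also detected in 1 cell, with 21761 as its highest signal. *Nppb* read 45789 in OFF T alpha 20, *Nppa* 11013 in SbC 25 and *Adm* 6635 in OFF S alpha 15. Of the precursors known from retinal amacrine cells, *Vip*, *Npy* and *Cck* were detected in no cell, *Penk* in 1, *Sst* in 2 and the member *Tac1* in 3.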
